A study of Drosophila melanogaster with 2 samples.

Results

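The vacuolar ATPase subunit genes were followed through the cell types of the adult Drosophila midgut. Members were all genes of the deposited gene list whose symbol begins with Vha, which gave 33 of 17737 genes. They were measured by single-cell RNA sequencing in 1 library of esgts/D30A midguts and 1 library of esgts/+ midguts. In both genotypes (w; esgGal4, tubGAL80[ts], UASGFP/+), esgGal4 drives transgenes in intestinal progenitors and the temperature-sensitive GAL80 holds it back at low temperature. The esgts/D30A flies also carried 1 copy of UAS-ImdD30A, a dominant inhibitory form of the immune deficiency (IMD) pathway protein Imd, and the esgts/+ flies carried no such transgene. Flies of both groups were reared at 18 °C until eclosion and held as adults at 29 °C for 10 days. Each library pooled 27 guts of virgin females, dissociated with 1 mg/ml elastase and enriched for live cells on a density gradient. The driver is a progenitor driver, so the transgene was aimed at the progenitors and not at the copper cells, enterocytes, or enteroendocrine cells described here.

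The vacuolar ATPase (V-ATPase) is a rotary proton pump. Its V1 sector sits in the cytosol and splits ATP, and its V0 sector lies in the membrane and carries the protons across. In most cells it acidifies lysosomes, endosomes, and secretory vesicles, and in specialised epithelia it stands in the plasma membrane and pumps protons out of the cell. In the middle midgut of the fly, copper cells acidify the lumen much as parietal cells do in the mammalian stomach. Several subunits are encoded by more than 1 gene, and the a subunit of V0 is the one best known for setting where the pump is placed.

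Each captured transcript molecule was counted once by a unique molecular identifier (UMI) at its 3′ end. Levels are given as CPM, the UMIs of a gene for every 1000000 UMIs of the class. They were not divided by transcript length, because a molecule is tagged once whatever its length. Intervals in brackets are exact 95% intervals that cover counting error only. With 1 library per genotype no test was possible, no p-value is given, and a difference between genotypes is also one between 2 libraries, which cannot be told apart. Between classes a gene was counted as higher or lower when it differed at least 2-fold the same way in both libraries, and between genotypes when it differed at least 1.5-fold.

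The esgts/D30A library held 53275921 UMIs in 6322 barcodes, and the esgts/+ library held 30383272 UMIs in 4242 barcodes. After filtering, 4083 and 3959 cells remained, with medians of 1684 UMIs in esgts/D30A and 1235 UMIs in esgts/+. In esgts/D30A 31.9% of barcodes had more than 25% of their UMIs on mitochondrial genes, against 3.39% in esgts/+, and these were left out. Among kept cells, 126 barcodes occurred in both libraries, and 94 of these fell into the same cluster in both. The deeper copy held a median of 165 times the UMIs of the shallower one (quartiles 157 and 173). Each library's copper cell-like class held 18 such barcodes, of which 2 in esgts/D30A and 15 in esgts/+ were the shallower copy. The transcript of imd stood at 14.2 CPM [12.3, 16.5] in progenitor-like cells of esgts/D30A and at 9.74 CPM [7.59, 12.3] in those of esgts/+. Whether transcripts of the transgene are counted under imd is not given in the sources used here, so this gene does not check the labels.

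Cells were clustered without the Vha genes, and clusters were named from marker genes. The copper cell-like class was 1 cluster with 130 cells in esgts/D30A and 102 in esgts/+, named from lab, Ptx1, and MtnB, 3 of the 6 copper cell markers. Summed, all 6 stood at 941 CPM there in esgts/D30A (6 detected) and 990 CPM in esgts/+ (5 detected, ct at 0). The list did not set the class apart by itself, since the sums were 642 and 578 CPM in enteroendocrine-like, 451 and 267 CPM in enterocyte-like, and 38.1 and 42.9 CPM in progenitor-like cells, and 523 and 952 CPM over the unnamed clusters, esgts/D30A given first. The homeobox gene lab, the defining marker of copper cells, stood at 243 CPM in this class in esgts/D30A and 164 CPM in esgts/+, against 0.539 and 1.31 CPM in enterocyte-like cells of the same libraries. A lab UMI was found in 111 of the 130 cells in esgts/D30A and in 70 of the 102 in esgts/+. The enterocyte-like class joined 12 clusters with 1623 cells in esgts/D30A and 2292 in esgts/+. The progenitor-like class joined 2 clusters with 525 and 569 cells, and the enteroendocrine-like class 4 clusters with 152 and 153 cells, esgts/D30A given first. Another 1653 cells of esgts/D30A and 843 of esgts/+ lay in clusters that met no naming rule. Depth differed widely between classes, with medians of 24842 UMIs per copper cell-like cell in esgts/D30A and 19183 in esgts/+, but 2018 and 1079 per enterocyte-like cell.

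The 33 members split into 19 genes with at least 500 UMIs over all kept cells and 14 below that minimum. The 14 held 933 UMIs together. VhaM9.7-a had 430 UMIs, Vha68-1 had 377, VhaAC39-2 had 104, Vha68-3 had 14, Vha36-3 had 7, and Vha16-5 had 1. No UMI was found for Vha36-2, Vha14-2, Vha100-3, Vha16-2, Vha16-3, Vha16-4, VhaPPA1-2, or VhaM9.7-d. For each of these a count of 0 allows up to 0.0614 CPM over all kept cells of esgts/D30A and 0.100 CPM over those of esgts/+. The unseen genes are all second copies of subunits that other members encode, so every subunit of both sectors had at least 1 gene above the minimum. The ring proteolipid c, for example, has 5 genes in the fly, and the midgut libraries read 1 of them, Vha16-1, with a lone UMI of Vha16-5 besides.

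Transcripts of the pump made up a large share of the copper cell-like transcriptome. The 33 members together held 79144 CPM [78887, 79402] in copper cell-like cells of esgts/D30A, or 7.91% of all UMIs, and 64199 CPM [63899, 64500] in those of esgts/+, or 6.42%. The enterocyte-like sums were 10238 CPM in esgts/D30A and 7696 CPM in esgts/+. Copper cell-like cells were thus 7.73-fold [7.69, 7.77] above enterocyte-like cells in esgts/D30A and 8.34-fold [8.28, 8.40] in esgts/+. Without every shared barcode these ratios were 7.95 and 8.01. Enteroendocrine-like cells held 6399 CPM in esgts/D30A and 5618 CPM in esgts/+. Progenitor-like cells stood lowest, at 3384 CPM in esgts/D30A and 2916 CPM in esgts/+. The order of the 4 classes was the same in both libraries, and each step exceeded its counting interval, since the narrowest, enteroendocrine-like over enterocyte-like, was 0.730 [0.708, 0.752] in esgts/+ and 0.625 [0.611, 0.639] in esgts/D30A.

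The high level was seen across the cells of the class. In single copper cell-like cells of esgts/D30A the members took from 2.64% to 13.3% of the UMIs, with a median of 7.89%. In those of esgts/+ they took from 2.60% to 13.4%, with a median of 6.68%. Enterocyte-like cells ranged up to 4.29% in esgts/D30A and 4.11% in esgts/+, with medians of 0.948% and 0.852%. The lower tail of the copper cell-like cells overlapped the upper tail of the enterocyte-like ones, and 10% of the copper cell-like cells lay under 4.61% in esgts/D30A and under 4.58% in esgts/+. Cells without a lab UMI were shallower, with medians of 6.47% in 19 cells of esgts/D30A and 6.66% in 32 cells of esgts/+. The cells with a lab UMI had medians of 8.26% in esgts/D30A and 6.68% in esgts/+. The 2 kinds of cell thus held similar shares in esgts/+, while in esgts/D30A the median was lower without a lab UMI. Of the copper cell-like cells, 2 in esgts/D30A and 15 in esgts/+ were the shallower copy of a barcode found in both libraries. The shallow cells of esgts/+ are therefore not all independent of esgts/D30A. The shares of cells without a lab UMI were not taken apart from these copies. When copper cells were instead taken as all cells with a lab UMI, the fold over enterocyte-like cells was 5.21 in esgts/D30A and 6.69 in esgts/+.

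**Figure D1:**
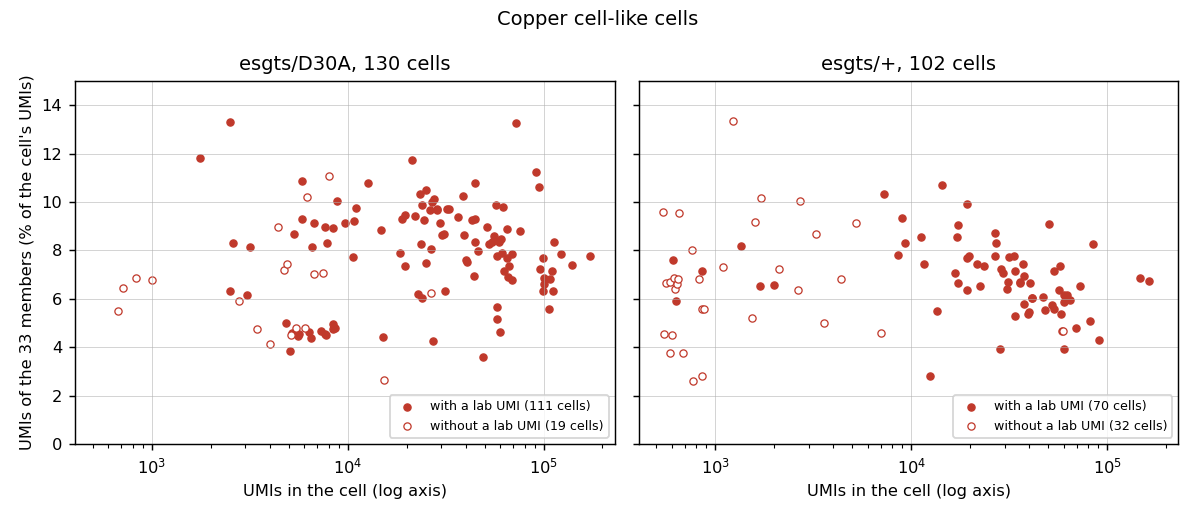
Share of each copper cell-like cell's UMIs that came from the 33 Vha genes (vertical axis, %) against the cell's UMIs (log axis), for 130 cells of esgts/D30A (left) and 102 cells of esgts/+ (right). Filled points are cells with a lab UMI and open points cells without one. The shares spread from about 2.6% to 13% in both libraries, and the open points lie mostly at low depth. Shallower copies of barcodes found in both libraries are included, 2 in esgts/D30A and 15 in esgts/+.

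Of the 19 members above the minimum, 16 were at least 2-fold higher in copper cell-like than in enterocyte-like cells of both libraries, where 12.0% of the 5329 genes above the minimum were. Their median log2 ratio was 2.92 in esgts/D30A and 2.96 in esgts/+, against 0.27 and 0.47 over all genes. Among the V1 subunits, the A subunit Vha68-2, which binds and splits ATP, stood at 5272 CPM in copper cell-like cells of esgts/D30A and 2893 CPM in those of esgts/+, against 566 and 286 CPM in enterocyte-like cells. This is 9.31-fold [9.11, 9.52] and 10.1-fold [9.74, 10.5]. Its partner in the catalytic ring, the B subunit Vha55, was 8.17-fold [7.99, 8.35] higher in esgts/D30A and 8.55-fold [8.29, 8.82] in esgts/+. The peripheral stalk genes Vha44 (subunit C), Vha26 (E), and Vha13 (G) differed by 7.57, 8.21, and 5.59-fold in esgts/D30A and by 7.74, 9.23, and 6.57-fold in esgts/+. The rotor genes Vha36-1 (D) and Vha14-1 (F) differed by 6.13 and 6.5-fold in esgts/D30A and by 7.78 and 7.46-fold in esgts/+. VhaSFD, the regulatory H subunit, was 9.53-fold [9.19, 9.89] higher in esgts/D30A and 10.7-fold [10.1, 11.4] in esgts/+. The 8 V1 subunits thus lay within a narrow band of folds.

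The V0 genes spread more. Vha16-1, the c proteolipid that forms the rotating ring, was the most abundant member, at 23232 CPM in copper cell-like cells of esgts/D30A and 14191 CPM in those of esgts/+. It stood at 2671 and 1410 CPM in enterocyte-like cells, which is 8.70-fold [8.61, 8.79] in esgts/D30A and 10.1-fold [9.90, 10.2] in esgts/+. The second ring proteolipid, VhaPPA1-1 (c″), had the largest ratio after Vha100-4, 12.5-fold [12.0, 12.9] in esgts/D30A and 15-fold [14.0, 16.1] in esgts/+. VhaAC39-1 (subunit d, which joins the ring to the central stalk) was 7.38-fold higher in esgts/D30A and 7.72-fold in esgts/+. Of the small e subunits, VhaM9.7-b was 5.89-fold higher in esgts/D30A and 6.79-fold in esgts/+, and VhaM9.7-c 2.06-fold [1.74, 2.44] and 2.41-fold [1.87, 3.08]. VhaM9.7-c alone lost its place among the 16 without every shared barcode, at 1.81-fold in esgts/D30A and 2.23-fold in esgts/+. Over the 13 alternatives run its fold went from 1.57 to 2.13 in esgts/D30A and from 1.73 to 2.50 in esgts/+. It overlaps Teh2 on the same strand of BDGP6.54, so its counts are uncertain. The accessory genes VhaAC45 and VhaM8.9, the fly homolog of the prorenin receptor, differed by 9.13 and 8.49-fold in esgts/D30A and by 10.8 and 9.77-fold in esgts/+. The 3 members that did not reach 2-fold higher were all genes of the a subunit.

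**Figure D2:**
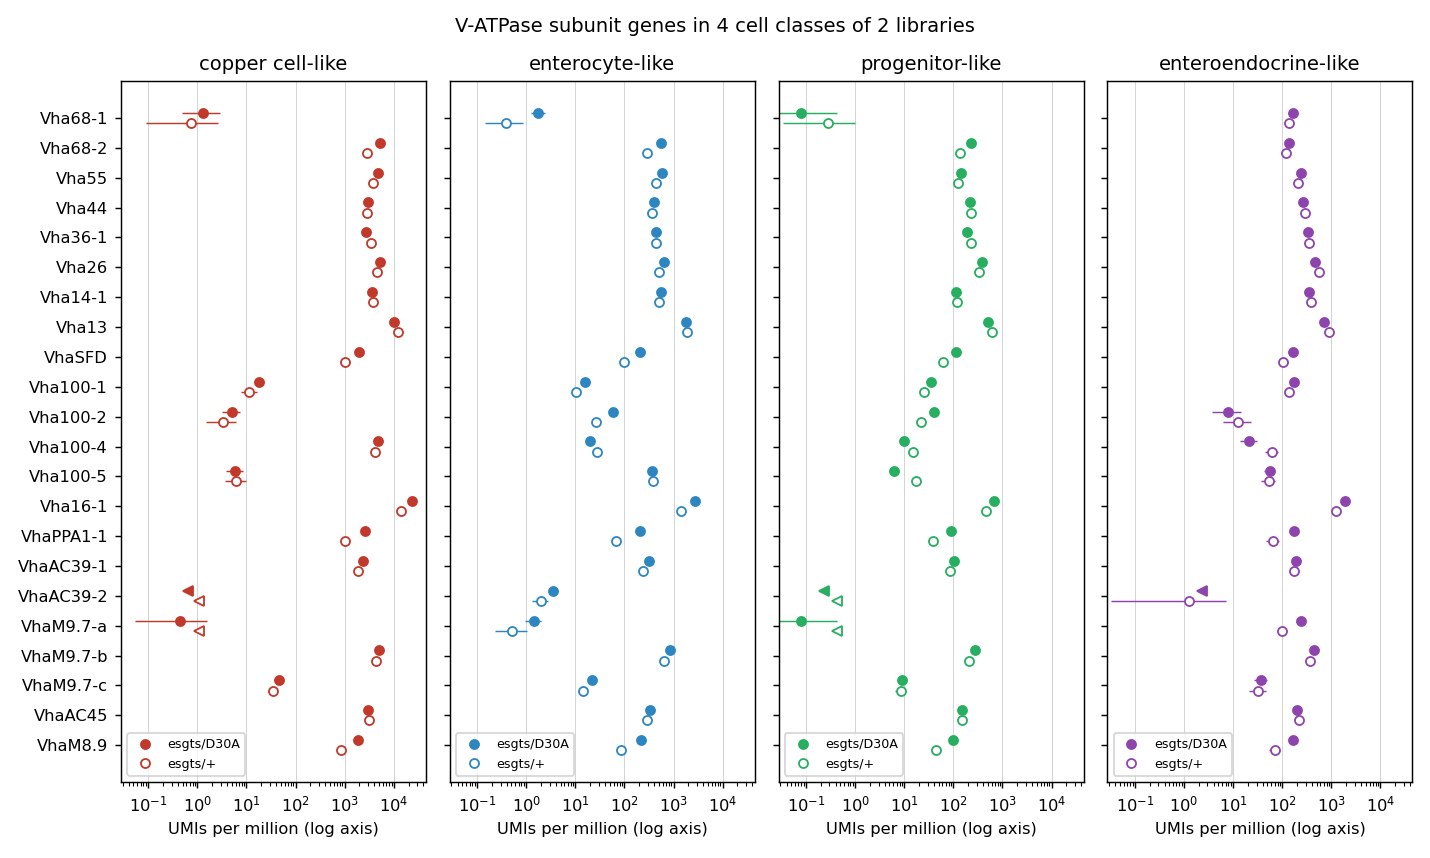
Level of each member with at least 100 UMIs (rows) in 4 cell classes (panels), in CPM on a log axis. Filled points are esgts/D30A and open points esgts/+, bars are exact 95% Poisson intervals, and left-pointing triangles mark the limit that a count of 0 allows. Most members shift right together in copper cell-like cells, while the Vha100 genes, Vha68-1, and VhaM9.7-a change places between classes.

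The a subunit had different leading genes in the 4 classes. Vha100-4, known in the fly from the acid-secreting copper cell region, stood at 4709 CPM [4646, 4772] in copper cell-like cells of esgts/D30A and at 4149 CPM [4073, 4227] in those of esgts/+. It supplied 99.4% [99.3, 99.5] of the Vha100 UMIs there in esgts/D30A and 99.5% [99.4, 99.6] in esgts/+. It was found in 130 of 130 cells in esgts/D30A and in 101 of 102 in esgts/+. In enterocyte-like cells it stood at 19.9 CPM in esgts/D30A and 28.1 CPM in esgts/+, so that the copper cell-like level was 237-fold [215, 262] and 148-fold [134, 163] higher. The size of this fold depended on the processing, from 75.1 to 476-fold in esgts/D30A and from 35.2 to 335-fold in esgts/+ over the 13 alternatives run, lowest in both when levels were averaged over cells. Without every shared barcode the Vha100-4 shares were 99.4% and 99.5%. No single cell held more than 3.16% of its copper cell-like UMIs in esgts/D30A or 6.03% in esgts/+.

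Vha100-5 was the leading a subunit gene of enterocyte-like cells. It stood at 371 CPM [363, 380] in enterocyte-like cells of esgts/D30A and 373 CPM [363, 383] in those of esgts/+. It supplied 79.6% [78.8, 80.5] of their Vha100 UMIs in esgts/D30A and 85.3% [84.4, 86.1] in esgts/+. These shares pool UMIs, so deeper clusters weigh more in them. Averaged over cells they were 68.1% in esgts/D30A and 65.2% in esgts/+. In copper cell-like cells Vha100-5 stood at 5.87 CPM (27 UMIs) in esgts/D30A and 6.22 CPM (17 UMIs, 47.1% of them in 1 cell) in esgts/+. It was 1 of 2 members at least 2-fold lower there in both libraries, where 14.9% of all genes were. Vha100-2 was the other, at 5.0 CPM in copper cell-like cells of esgts/D30A and 3.29 CPM in those of esgts/+, against 59.5 and 25.9 CPM in enterocyte-like cells. Vha100-1, which in fly neurons acts at synaptic vesicles, had ratios of 1.18 [0.913, 1.5] in esgts/D30A and 1.1 [0.725, 1.63] in esgts/+. Over 13 alternatives these ran from 0.973 to 1.27 in esgts/D30A, 1 of them below 1, and from 0.463 to 1.56 in esgts/+, 3 of them below 1, so no direction is given for Vha100-1.

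Progenitor-like cells used a mixture and held few Vha100 transcripts. Vha100-2 stood at 39.8 CPM in esgts/D30A and 21.6 CPM in esgts/+, or 43.5% [40.7, 46.4] and 27.4% [23.8, 31.3] of the Vha100 UMIs. Vha100-1 stood at 35.4 CPM in esgts/D30A and 24.9 CPM in esgts/+, or 38.7% [35.9, 41.5] and 31.7% [27.9, 35.7]. Vha100-5 took 6.80% [5.43, 8.40] in esgts/D30A and 21.9% [18.6, 25.6] in esgts/+, beside enterocyte marker sums of 3598 and 7832 CPM whose part in it was not tested. The intervals of Vha100-1 and Vha100-2 overlapped in both libraries, so neither led this class. Both lay above Vha100-4 and Vha100-5 in esgts/D30A, while in esgts/+ the intervals of Vha100-2 and Vha100-5 also overlapped.

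In enteroendocrine-like cells Vha100-1 led, with 177 CPM [155, 202] in esgts/D30A and 137 CPM [112, 166] in esgts/+. It supplied 67.8% [62.5, 72.8] of the Vha100 UMIs in esgts/D30A and 51.9% [44.9, 58.9] in esgts/+, and stood 5.0-fold [4.24, 5.88] and 5.51-fold [4.29, 7.03] above progenitor-like cells. The 2 largest enteroendocrine-like clusters differed. In cluster 19, led by the peptide hormone genes Mip, CCHa2, and AstA, Vha100-1 took 85.6% in esgts/D30A and 57.5% in esgts/+, with Vha100-5 at 5.62% and 3.45%. In esgts/+ Vha100-4 took 34.5% of this cluster, with 63.3% of its UMIs in 1 cell. In cluster 20, led by CG7191, Dh31, CG14662, and Tk, Vha100-1 took 48.5% and Vha100-5 43.8% in esgts/D30A, against 40.7% and 39.5% in esgts/+. Of the 58 cluster 20 cells in esgts/D30A, 24 held a Vha100-5 UMI, and of the 49 in esgts/+, 18 did. No cell gave more than 12.5% of these UMIs. Enterocyte markers, 31 of 33 detected, summed to 8122 CPM in enteroendocrine-like cells of esgts/D30A and 18879 CPM in those of esgts/+, against 115057 and 163676 CPM in enterocyte-like cells, and their part in the Vha100-5 and Vha100-4 levels was not tested.

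**Figure D3:**
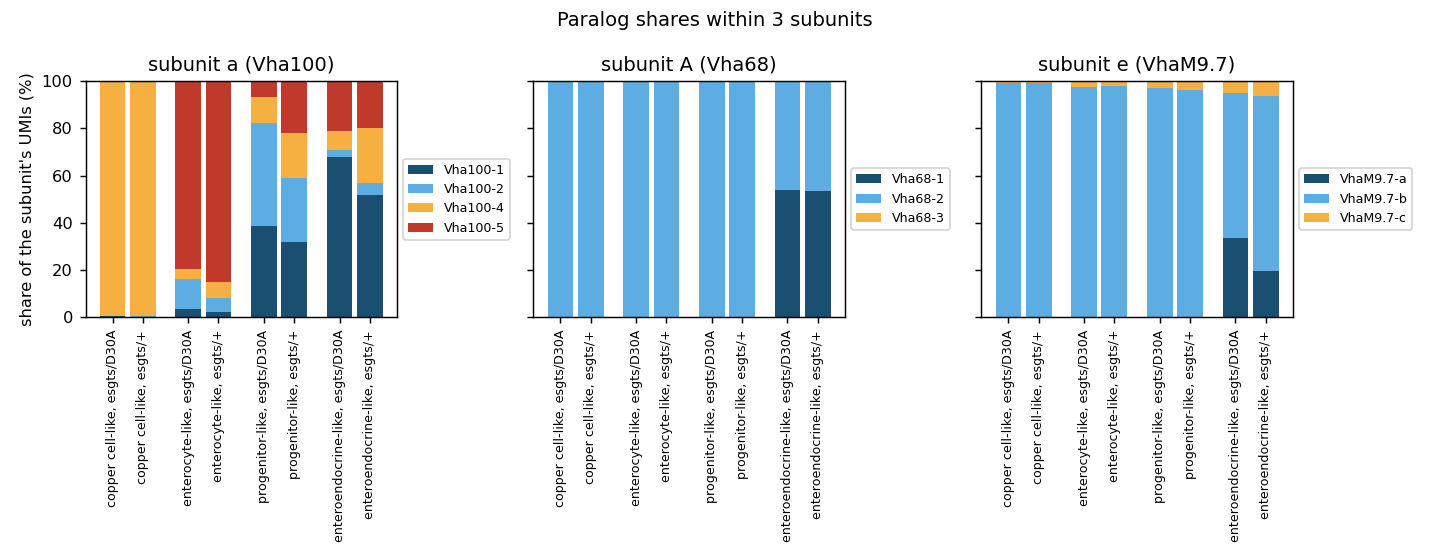
Share of each subunit's UMIs (%) taken by each of its genes in 4 cell classes, esgts/D30A left of esgts/+ within each class, for subunit a (left), subunit A (middle), and subunit e (right). Vha100-4 fills the copper cell-like bars of subunit a and Vha100-5 most of the enterocyte-like bars. Vha68-1 and VhaM9.7-a appear as visible shares in enteroendocrine-like cells only.

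Enteroendocrine-like cells also used a second gene for the catalytic A subunit. Vha68-1 stood at 162 CPM [141, 186] in these cells in esgts/D30A and at 136 CPM [111, 164] in esgts/+, where it supplied 53.8% [48.6, 58.9] and 53.5% [46.3, 60.6] of the Vha68 UMIs. Of all its 258 UMIs in esgts/D30A 206 came from this class, and of its 119 in esgts/+ 106 did. In enterocyte-like cells it stood at 1.77 CPM in esgts/D30A and 0.393 CPM in esgts/+, so that the enteroendocrine-like level was 91.8-fold [64.2, 135] and 346-fold [154, 963] higher. In copper cell-like, enterocyte-like, and progenitor-like cells Vha68-2 supplied at least 99.6% of the subunit. In esgts/D30A 70 of 152 enteroendocrine-like cells held UMIs of both genes, 34 of Vha68-1 alone, 17 of Vha68-2 alone, and 31 of neither. In esgts/+ the numbers among 153 cells were 27, 35, 28, and 63. How far shallow cells and free RNA set these numbers was not tested, so they do not show whether single cells use 1 or both genes. All 4 enteroendocrine-like clusters held Vha68-1, from 83.8 to 185 CPM in esgts/D30A and from 63.9 to 183 CPM in esgts/+.

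The small e subunit showed the same class as an exception. VhaM9.7-a stood at 239 CPM [213, 268] in enteroendocrine-like cells of esgts/D30A and 98.7 CPM [77.9, 123] in those of esgts/+. It supplied 33.4% [30.3, 36.6] of the VhaM9.7 UMIs in esgts/D30A and 19.7% [15.9, 24.0] in esgts/+, and VhaM9.7-b most of the rest. In enterocyte-like cells VhaM9.7-a was at 1.42 CPM in esgts/D30A and 0.524 CPM in esgts/+, so that the enteroendocrine-like level was 168-fold [115, 255] and 188-fold [90.9, 452] higher. Of the 152 enteroendocrine-like cells in esgts/D30A 113 held a VhaM9.7-a UMI, and 104 of them a VhaM9.7-b UMI as well. Among the 153 in esgts/+ 49 held VhaM9.7-a, and 44 of them both. The 4 neuron markers on the list summed to 1361 CPM in this class in esgts/D30A and 1448 CPM in esgts/+, against sums from 14.1 to 45.2 CPM in the other named classes, and their part in these levels was not tested. All 12 enteroendocrine markers were detected in the class in both libraries.

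The rarer gene of subunit d followed the enterocyte-like cells. VhaAC39-2 had 72 UMIs there in esgts/D30A (3.53 CPM [2.76, 4.45]) and 30 in esgts/+ (1.97 CPM [1.33, 2.81]). None was found in copper cell-like or progenitor-like cells of either library, and 1 was found in an enteroendocrine-like cell of esgts/+. Of the UMIs in esgts/D30A 43 lay in cluster 3, led by the alpha-mannosidase genes LManV, LManII, and LManIV, and 19 in cluster 1, led by CG7542 and lysozyme genes. In esgts/+ these clusters held 10 and 14. VhaAC39-1 supplied at least 98.9% of the subunit in each of the 4 classes.

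Enterocyte-like cells exceeded progenitor-like cells over much of the complex. The summed level was 3.03-fold [2.99, 3.06] higher in esgts/D30A and 2.64-fold [2.60, 2.68] in esgts/+. Of the 19 members 8 were at least 2-fold higher in both libraries, where 20.8% of genes were. They were Vha68-2, Vha55, Vha14-1, Vha13, Vha100-5, Vha16-1, VhaAC39-1, and VhaM9.7-b. Vha100-1 was the only member at least 2-fold lower in both libraries, at 0.439 [0.379, 0.508] in esgts/D30A and 0.413 [0.331, 0.514] in esgts/+, where 28.2% of genes were. The largest ratio was that of Vha100-5, 59.6-fold [47.9, 75.3] in esgts/D30A and 21.6-fold [18.1, 26] in esgts/+. The median log2 ratio of the members was 1.21 in esgts/D30A and 0.96 in esgts/+, against -0.23 and -0.52 over all genes.

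Enteroendocrine-like cells exceeded progenitor-like cells by 1.89-fold [1.85, 1.94] in esgts/D30A and 1.93-fold [1.86, 1.99] in esgts/+. Of the 19 members, 6 were at least 2-fold higher in both libraries, where 36.2% of genes were, and none was at least 2-fold lower, where 7.56% of genes were. The 6 were Vha14-1, Vha100-1, Vha100-4, Vha100-5, Vha16-1, and VhaM9.7-c. Vha100-4 is among them by the rule alone, and its level outside copper cell-like cells is not counted here as use of the gene. The part of enterocyte transcripts in the Vha100-5 level of enteroendocrine-like cells was not tested. The members' median log2 ratio, 0.77 in esgts/D30A and 0.76 in esgts/+, lay close to that of all genes, 0.72 and 0.83.

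Vha100-4 also gave an upper limit on copper cell RNA outside copper cells. Its level in progenitor-like cells was 0.213% of the copper cell-like level in esgts/D30A and 0.359% in esgts/+, and in enterocyte-like cells 0.422% and 0.677%. If all of this RNA came with the copper cell-like mixture of members, it would amount to 3.26% of the enterocyte-like Vha sum in esgts/D30A and 5.65% in esgts/+. The same figure was 4.99% and 7.90% in progenitor-like cells, and 5.58% and 16.9% in enteroendocrine-like cells. Class figures pool UMIs, so deeper clusters weigh more in them. By single enterocyte-like cluster, the figure ran from 0.931% (cluster 14) to 81.3% (cluster 5, 10 cells) in esgts/D30A. In esgts/+ it ran from 1.07% (cluster 1) to 37.3% (cluster 5). It was 33.7% in cluster 10 of esgts/D30A and 35.1% in cluster 21 of esgts/+. The low class figures therefore do not hold for each enterocyte-like cluster. Shares of cells with a UMI were read with this in mind. Vha100-4 was found in 21.1% of progenitor-like cells in esgts/D30A and 17% in esgts/+, and at 650 UMIs per cell in 1.08% and 1.46%, against 92.7% and 92.1% of copper cell-like cells at that depth. The level of Vha100-4 in the other classes is therefore not counted here as use of the gene.

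Unnamed clusters held further patterns of subunit a. Cluster 18, led by CG13177, CG9993, and Cpr62Ba and with PGRP-SC1a as its 1 marker, a gene of the copper cell list, held 31322 CPM [30398, 32268] of members in 96 cells of esgts/D30A and 25306 CPM [23441, 27280] in 29 cells of esgts/+. Vha100-2 took 80% of its Vha100 UMIs in esgts/D30A, 84 UMIs at 606 CPM [483, 750] of which 26.2% came from 1 cell, and 40% in esgts/+, where it rested on 4 UMIs. Vha100-4 stood at 43.3 CPM there in esgts/D30A and at 149 CPM in esgts/+, where it also rested on 4 UMIs. Vha100-2 therefore led the a subunit genes of cluster 18 in esgts/D30A only. Cluster 25, led by Alp4, held 17683 CPM in 8 cells of esgts/D30A and 16674 CPM in 40 cells of esgts/+. Vha100-2 took 75% and 57.1% of its a subunit UMIs. The share in esgts/D30A rests on those 8 cells, 1 of which gave 46.4% of the cluster's Vha UMIs. Of the 6 Malpighian tubule markers only 2, Oatp58Dc and ZnT35C, met the marker rule, short of the 3 needed for a name. In the fly, the Malpighian tubule is another epithelium known for a plasma membrane V-ATPase. Whether cluster 25 holds tubule cells was not tested. Cluster 23, led by CG40198, CG3301, and Irk2, held 13863 CPM in 34 cells of esgts/D30A and 12531 CPM in 41 cells of esgts/+, with Vha100-5 and Vha100-2 as its main a genes.

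Cluster 7 was the only other cluster in which Vha100-4 took most of the a subunit in both libraries. It held 32077 CPM of members in 181 cells of esgts/D30A and 20321 CPM in 241 cells of esgts/+, with Vha100-4 at 1425 and 792 CPM. Its cells were shallow, with medians of 1139 UMIs in esgts/D30A and 821 in esgts/+. It carried 7 enterocyte markers, but none stood among its leading genes. The copper cell marker MtnB and the cardia marker Peritrophin-15b did, so the cluster stayed unnamed. Vha100-4 was found in 95 of its 181 cells in esgts/D30A and in 82 of its 241 in esgts/+. Whether these are copper cells, mixtures, or cells with free copper cell RNA was not tested.

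**Figure D4:**
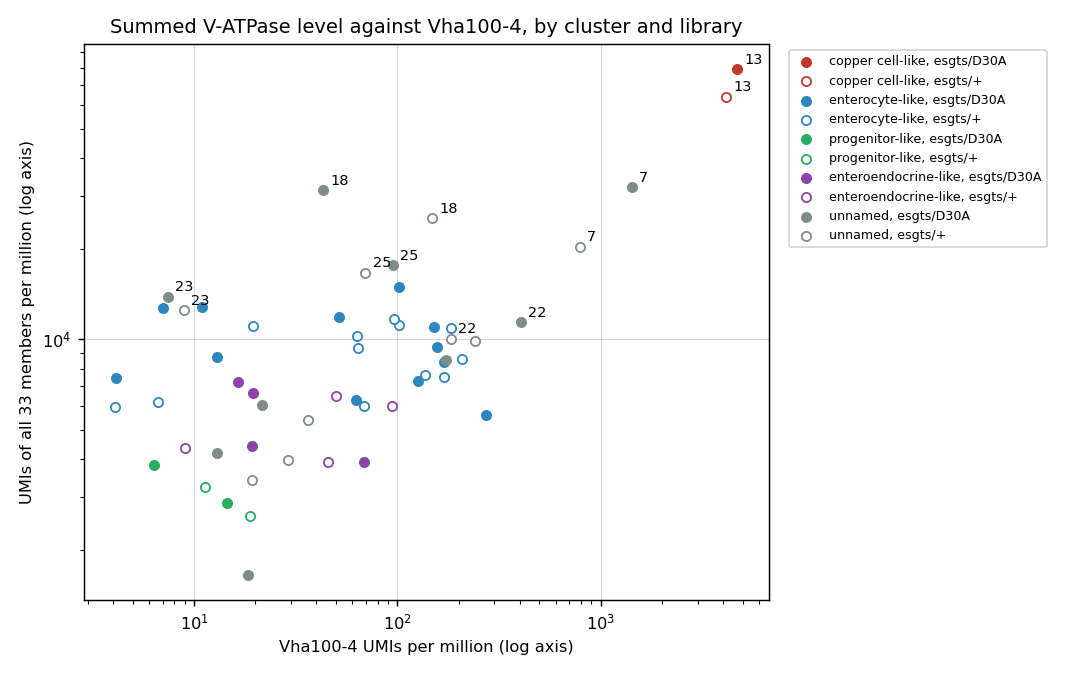
Summed level of the 33 members against the level of Vha100-4, both in CPM on log axes, with 1 point per cluster and library, filled for esgts/D30A and open for esgts/+. Numbers mark clusters 7, 13, 18, 22, 23, and 25. Clusters 13 (copper cell-like) and 7 lie to the upper right, and clusters 18, 23, and 25 reach high sums at low Vha100-4.

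Over 20 clusters with at least 30 cells in each library (40 points that share libraries and depth), the genes whose log2 level was most like that of Vha100-4 were CG5767, CG8661, CG30479, CG6277, and CG31446, with Pearson's r from 0.931 to 0.968 as a description. Among the members, VhaAC45 came closest, at 0.765 and rank 24 of 5329 genes, followed by VhaAC39-1 at 0.735 and Vha55 at 0.711. The other a subunit genes had negative values, -0.18 for Vha100-1 (rank 4628), -0.05 for Vha100-2 (rank 3059), and -0.20 for Vha100-5 (rank 4829). That of Vha100-2 lay near the middle of the ranking. On the BDGP6.54 assembly, Vha100-4 (3R:18386841-18389805) and Vha100-2 (3R:18390323-18399169) are neighbours on the minus strand, 517 bases apart. Vha68-2 (2L:12974322-12978607) and Vha68-3 (2L:12978786-12981293) lie 178 bases apart on the plus strand, and Vha68-1 (2L:13000770-13004107) on the minus strand nearby. The build of the counts is not given in the sources used here.

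The pathway around the pump was read from 4 gene lists. Of 20 acid and ion transport genes 14 were above the minimum, 3 of them at least 2-fold higher in copper cell-like than enterocyte-like cells of both libraries and 4 lower. Of all genes above the minimum 12.0% were higher by this rule and 14.9% lower, and these shares stand as the background for all 4 lists. CAH1, a carbonic anhydrase, which supplies protons from carbon dioxide and water, was 20.6-fold [19.8, 21.4] higher in esgts/D30A and 17.8-fold [17, 18.5] in esgts/+. The sodium-proton exchanger gene Nhe2 was 12.6 and 9.69-fold higher, and Atpalpha, the catalytic subunit of the sodium pump, 3.92 and 4.91-fold. The lowest ratios were those of CAH2, the anion exchanger gene Ndae1, and the potassium channel gene Irk2, from 0.0496 to 0.127 in esgts/D30A and from 0.0559 to 0.101 in esgts/+. The list's median log2 ratio was 0.08 in esgts/D30A and 0.15 in esgts/+.

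The second list held genes of assembly and regulation. Of 12 such genes above the minimum only Rbcn-3B, which belongs to the assembly factor known as RAVE in yeast, was at least 2-fold higher in both libraries, at 2.04 and 2.15-fold, and none was lower. The kinase gene Tor had the highest ratios taken over both libraries, 1.81 in esgts/D30A, short of 2-fold, and 3.87 in esgts/+, where it rested on 18 UMIs in copper cell-like cells. Rbcn-3B and then REPTOR followed, and RagA-B, CG14184, and CG14977 were lowest, the last 3 between 0.779 and 0.959 in esgts/D30A and between 0.877 and 1.14 in esgts/+. Of 17 lysosomal genes above the minimum 2 were higher and 7 lower. The lysosomal transporter gene spin was 3.05 and 4.18-fold higher and the protease gene cathD 2.63 and 3.22-fold, followed by Npc1a. Gba1a, LManII, and Cln3 had the lowest ratios, between 0.00765 and 0.0233 over both libraries, and mannosidase genes mark an enterocyte-like cluster. Of 13 genes of the mitochondrial ATP synthase, which is the nearest relative of the V-ATPase in build, only blw was 2-fold higher in both, at 2.16 and 2.38-fold. It was followed by ATPsynC and ATPsyndelta, and ATPsynF, sun, and ATPsynD were lowest, all 3 above 1. The medians of these lists were 0.30 and 0.40, -0.52 and -0.13, and 0.50 and 0.64 on the log2 scale, esgts/D30A given first in each, beside 0.27 and 0.47 over all genes and 2.92 and 2.96 over the members.

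The summed level of the members was higher in esgts/D30A than in esgts/+ in each of the 4 classes. The ratio was 1.23 [1.23, 1.24] in copper cell-like, 1.33 [1.32, 1.34] in enterocyte-like, 1.16 [1.14, 1.18] in progenitor-like, and 1.14 [1.1, 1.18] in enteroendocrine-like cells. With a scaling that sets the median ratio of all genes to 1, the enterocyte-like ratio was 1.01 and the copper cell-like and progenitor-like ratios were both 1.11. Without every shared barcode the ratios were 1.29, 1.30, 1.11, and 1.14 in the same order of classes. The members' median log2 ratio was 0.32 in copper cell-like, 0.40 in enterocyte-like, 0.21 in progenitor-like, and 0.12 in enteroendocrine-like cells, against 0.15, 0.39, 0.07, and -0.05 over all genes. In enterocyte-like cells the members therefore lay where all genes lay. That class also differed in makeup, with 10 cells of esgts/D30A and 437 of esgts/+ in cluster 5, 15 and 234 in cluster 11, 50 and 235 in cluster 10, and 141 and 25 in cluster 17. Within its 9 clusters that held at least 30 cells of each library, the summed ratio ran from 0.841 [0.763, 0.927] in cluster 21 to 1.47 [1.46, 1.49] in cluster 1. Over the cells outside the named classes the order was the opposite, with 9204 CPM in esgts/D30A and 11431 CPM in esgts/+. Among their clusters, cluster 0 had a ratio of 0.863 [0.823, 0.906] and cluster 6 one of 0.483 [0.415, 0.564], while cluster 7 had 1.58 [1.52, 1.64].

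The members differed either way in copper cell-like cells. Vha36-1 had a ratio of 0.789 [0.768, 0.810] and Vha13 one of 0.819 [0.808, 0.831], while Vha55 had 1.25 [1.22, 1.28] and VhaAC39-1 1.26 [1.22, 1.30]. Vha68-2, VhaSFD, Vha16-1, VhaPPA1-1, and VhaM8.9 were grouped for their high ratios after these had been seen, so the values that follow describe them and are no test. Summed, these 5 stood at 34840 CPM in copper cell-like cells of esgts/D30A and 19978 CPM in those of esgts/+, a ratio of 1.74 [1.73, 1.76]. The summed ratio of the 5 was 1.98 in enterocyte-like, 1.63 in progenitor-like, and 1.54 in enteroendocrine-like cells. Vha16-1 gave the most UMIs to these sums, so they are not ratios of each gene. In enteroendocrine-like cells Vha68-2 had a ratio of 1.18 and Vha16-1 one of 1.47, both short of 1.5-fold. VhaSFD, VhaPPA1-1, and VhaM8.9 passed 1.5-fold there. In progenitor-like cells Vha16-1 alone of the 5 fell short, at 1.48. The 5 encode the catalytic subunit, the regulatory subunit, both ring proteolipids, and an accessory protein, so they belong to both sectors.

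VhaPPA1-1 had the largest ratio of these. It stood at 2538 CPM [2492, 2585] in copper cell-like cells of esgts/D30A and 1024 CPM [986, 1063] in those of esgts/+, and at 203 and 68.3 CPM in enterocyte-like, 88.2 and 38.3 CPM in progenitor-like, and 177 and 64.1 CPM in enteroendocrine-like cells. The ratios ran from 2.30 to 2.98. VhaM8.9 stood at 1860 CPM in copper cell-like cells of esgts/D30A and 843 CPM in those of esgts/+, and at 219 and 86.3 CPM in enterocyte-like cells, with class ratios from 2.21 to 2.54. Cluster by cluster, VhaM8.9 was higher in esgts/D30A in 20 of 20 clusters with at least 30 cells in each library, with a median ratio of 2.30, and VhaPPA1-1 in 19 of 20, with a median of 2.27. Vha68-2, VhaSFD, and Vha16-1 were each higher in 18 of the 20. In the other direction, Vha13 was lower in esgts/D30A in 16 clusters and Vha36-1 in 17, with median ratios of 0.816 and 0.818. The 20 clusters share the same 2 libraries and are not replicates. The genes with high ratios had been grouped from these same cells, so their cluster counts follow in part from that choice. The cluster counts were not set beside those of all genes.

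Over the whole complex, V1 genes held 46.1% of the Vha UMIs in copper cell-like cells of esgts/D30A and 54.1% in those of esgts/+. The shares were 50.5% and 58.8% in enterocyte-like, 55.7% and 63.2% in progenitor-like, and 44.4% and 54.5% in enteroendocrine-like cells. V1 thus took a smaller share in esgts/D30A in all 4 classes. In copper cell-like cells subunit c, read from Vha16-1, took 29.4% of the Vha UMIs in esgts/D30A and 22.1% in esgts/+. The V1 subunit G, Vha13, took 12.8% and 19.3% there. In progenitor-like cells subunit c took 20.0% and 15.7%, and subunit G 14.9% and 20.8%, esgts/D30A given first.

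**Figure D5:**
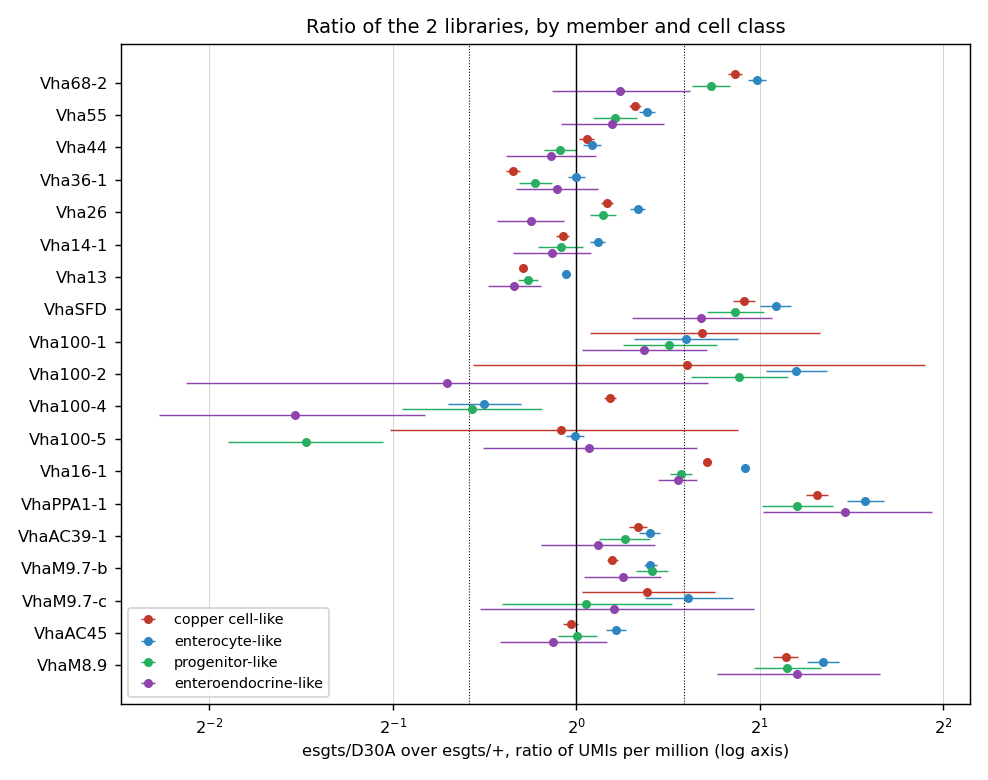
Ratio of esgts/D30A over esgts/+ (log axis) for the 19 members above the minimum in 4 cell classes, with exact 95% intervals for counting error. The solid line marks a ratio of 1 and the dotted lines 1.5-fold either way. VhaPPA1-1 and VhaM8.9 lie past 1.5-fold in every class, and Vha13 lies below 1 in every class.

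Counted by the 1.5-fold rule, 7 members were higher in esgts/D30A in copper cell-like cells, where 24.4% of genes were, and none was lower, where 8.16% were. In enterocyte-like cells 8 were higher, where 34.7% of genes were, and none lower, where 1.63% were. In progenitor-like cells 5 were higher (15.3% of genes) and 1, Vha100-5, was lower (8.24%). In enteroendocrine-like cells 3 were higher (14.9%) and 2, Vha100-2 and Vha100-4, lower (15.8%). The shares of members called, 36.8%, 42.1%, 26.3%, and 15.8% in the higher direction, are to be read against those of all genes. Median mitochondrial shares were 3.82% in copper cell-like cells of esgts/D30A and 1.28% in those of esgts/+, and their part in the ratios was not tested.

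The a subunit genes differed between the libraries in their own way. Vha100-2 was 2.29-fold [2.05, 2.58] higher in enterocyte-like cells of esgts/D30A and 1.85-fold [1.54, 2.23] higher in progenitor-like cells. In copper cell-like cells its ratio of 1.52 [0.677, 3.73] rested on 23 UMIs in esgts/D30A and 9 in esgts/+ and was 0.987 without every shared barcode. In enterocyte-like cells Vha100-5 had a ratio of 0.995 [0.962, 1.03], and it was lower in progenitor-like cells of esgts/D30A, with 6.23 CPM there and 17.3 CPM in esgts/+, a ratio of 0.361 [0.269, 0.482]. Vha100-4 had a ratio of 1.13 [1.11, 1.16] in copper cell-like cells, with 0.707 [0.615, 0.811] in enterocyte-like and 0.345 [0.207, 0.564] in enteroendocrine-like cells. The first of these Vha100-4 ratios was 0.991 when levels were averaged over cells and 0.949 when copper cells were taken by a lab UMI, and the enterocyte-like one was 1.45 under a stricter cell filter, so each changed sides of 1. A single enteroendocrine-like cell held 39.6% of the 48 Vha100-4 UMIs of that class in esgts/+. VhaM9.7-a was 2.42-fold [1.88, 3.15] higher in enteroendocrine-like cells of esgts/D30A, where Vha68-1 had a ratio of 1.19 [0.939, 1.52].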

How the data were processed

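Midgut cells were profiled by single-cell RNA sequencing in 1 library per genotype. The deposited matrices hold unnormalized UMI counts, produced by the authors with Cell Ranger (3.0 in the submitters' notes, 3.0.2 in the file headers). Totals were 53275921 UMIs in esgts/D30A and 30383272 in esgts/+. The build behind the counts is not given in the sources used here. Members were placed on BDGP6.54, 32 by identifier and Vha44 by symbol.

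Barcodes under 200 genes or over 25% mitochondrial UMIs were left out. Doublets were ranked by Scrublet score (scanpy 1.11.5), and the top share, 0.8% for every 1000 barcodes, was dropped (218 barcodes in esgts/D30A, 139 in esgts/+), because the automatic caller marked 0 in each library. Anchor integration and clustering used Seurat 5.3.0 with Matrix 1.6.5 under R 4.3.3 (2000 variable genes without Vha and pathway genes, 30 dimensions, resolution 0.8). A class name required 3 of its markers, each in 10% of the cluster's cells and 1.5-fold above other cells. Clusters stayed unnamed where the leading 10 genes carried more markers of a different class, or where their median depth fell short of that of the library by a factor of 3 and no marker led. These thresholds were set after clusters had been seen, and the names may differ from the study's.

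UMIs were summed per class and library with pandas 2.3.3 and numpy 2.4.6 (Python 3.11.15), with exact Poisson, conditional ratio, and Clopper-Pearson intervals at 95% (scipy 1.17.1). Limits for a count of 0 used 3 counts. Shares of cells at 650 UMIs left out shallower cells, 0 in esgts/D30A and, in esgts/+, 13 copper cell-like, 442 enterocyte-like, and 13 progenitor-like cells. Tested on simulated data for copper cell-like over enterocyte-like cells of esgts/D30A (2921 genes, 200 changed), 100% of changed and 0% of unchanged genes were called, and 95.1% of intervals held the true ratio. The changed genes were given folds well past the 2-fold cutoff, so these calls say nothing about genes near it. The rule of both libraries was not simulated. Spread between cells was not simulated. Figures used matplotlib 3.10.9.

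Every Vha gene was accounted for. From each pathway list the text names the genes counted as higher and those ranked in the first 3 and last 3 places by ratio. Other genes counted as lower are not named. Likeness to Vha100-4 was Pearson's r of log2(CPM + 10), with the first 5 genes named. Members and lists were chosen with earlier results of these data known.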

Additional observations from a re-analysis of the deposited data

Results flagged for a closer look

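Of the 19 members above the minimum, 2 had a genotype ratio whose counting interval lay above 1 in one class and below 1 in another, by at least 1.1-fold each way. Vha26, subunit E of the peripheral stalk, had an esgts/D30A over esgts/+ ratio of 1.26 in enterocyte-like cells and 0.842 [0.742, 0.956] in enteroendocrine-like cells. The enterocyte-like ratio of Vha26 was 0.998 when levels were averaged over cells and 0.962 with median-of-ratios scaling, so the opposite directions were lost under 2 of 12 alternatives. Vha100-4 had a ratio of 1.13 in copper cell-like cells and 0.345 in enteroendocrine-like cells, where it rested on 27 UMIs in esgts/D30A and 48 in esgts/+, 39.6% of the esgts/+ UMIs in 1 cell. The copper cell-like ratio of Vha100-4 was below 1 under 2 of 11 alternatives, averaging over cells (0.991) and copper cells taken by a lab UMI (0.949), and the opposite directions were lost there too. Neither difference between classes was tested, since each genotype had 1 library.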

How the results depend on the processing

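Copper cell-like cells kept the higher Vha sum, and esgts/D30A the higher class sums, under every alternative run. Of the members, 15 or 16 were called higher in copper cell-like cells. The copper cell-like over enterocyte-like ratio is given first for esgts/D30A, then for esgts/+, where a setting moved both. A stricter cell filter (500 genes, 10% mitochondrial UMIs) gave 8.68 in esgts/+, a genotype ratio of 1.38 in enterocyte-like cells, and a Vha100-5 share of 89.3% in esgts/+. Without doublet removal the ratio was 7.41 in esgts/D30A and the copper cell-like genotype ratio 1.19. Resolution 0.4 gave 7.36 and 7.77, genotype ratios of 1.21 in copper cell-like and 1.28 in enterocyte-like cells, and Vha100-5 shares of 74.7% and 83.3%. Resolution 1.2 gave 7.77 in esgts/D30A, 1.32 between genotypes in enterocyte-like cells, and a Vha100-5 share of 78.4% in esgts/D30A. Merging without integration gave 7.23 and 7.73, genotype ratios of 1.19 and 1.27 in copper cell-like and enterocyte-like cells, and Vha100-5 shares of 74.9% and 82.2%. With all variable genes the values were 7.47 and 8.2, a copper cell-like genotype ratio of 1.21, and a Vha100-5 share of 86.5% in esgts/+.

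Averaging over cells gave 7.65 and 7.28, and genotype ratios of 1.14, 1.08, 1.08, and 1.06 in copper cell-like, enterocyte-like, progenitor-like, and enteroendocrine-like cells. The Vha100-4 share of copper cell-like cells was then 99.2% in esgts/D30A, the Vha100-5 share of enterocyte-like cells 68.1% and 65.2%, the Vha68-1 share of enteroendocrine-like cells 46.2% in esgts/+, and the Vha100-2 genotype ratio in enteroendocrine-like cells turned to 1.15, against 0.614. Median-of-ratios scaling gave 6.40 and 6.0, with genotype ratios of 1.11 in copper cell-like, 1.01 in enterocyte-like, and 1.11 in progenitor-like cells. Copper cells taken by a lab UMI gave 5.21 and 6.69, a genotype ratio of 1.04, and Vha100-4 shares of 97.8% and 98.4%.

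Further settings were chosen after seeing the data. Without every shared barcode the ratios were 7.95 and 8.01, the genotype ratios 1.29, 1.30, and 1.11 in copper cell-like, enterocyte-like, and progenitor-like cells, and the Vha100-2 genotype ratio in copper cell-like cells turned to 0.987, against 1.52. With the deeper enterocyte-like clusters alone the ratio was 8.46 in esgts/+, the enterocyte-like genotype ratio 1.36, and the Vha100-5 shares 83.4% and 89.3%. With enterocyte-like clusters of both libraries the ratio was 7.67 in esgts/D30A and the shares 82.5% and 87.7%. Over all alternatives, single members moved more than the sums. The Vha100-4 fold of copper cell-like over enterocyte-like cells ran from 75.1 to 476 in esgts/D30A and from 35.2 to 335 in esgts/+, that of Vha100-2 from 0.0612 to 0.495 and from 0.0874 to 0.349, that of Vha100-5 from 0.0131 to 0.0536 and from 0.0120 to 0.0744, and that of Vha100-1 in esgts/+ from 0.463 to 1.56. The Vha100-4 genotype ratio ran from 0.949 to 1.17 in copper cell-like and from 0.464 to 1.45 in enterocyte-like cells, and that of Vha26 from 0.962 to 1.33 in enterocyte-like cells, so each changed sides of 1. The causes of these shifts were not tested. No paired analysis was possible because each genotype had 1 library. Depth limited Vha100-2 in copper cell-like cells and the a subunit genes in single enteroendocrine-like clusters, which rested on few UMIs.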
